A study of Mus musculus with 15 samples.

Results

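A set of 8 mouse genes that start, carry out or hold back apoptosis was followed through 15 RNA-seq libraries of cultured B cells: the caspases Casp2, Casp6, Casp8 and Casp9, the caspase-activating adaptor Apaf1, the inhibitors Cflar and Xiap, and the death receptor Tnfrsf10b. They are the 8 of 51912 gene identifiers in the deposited table that carry these symbols, whatever their values, and 8 of 8 passed the filter on low counts that left 15692 genes for testing. The cells were wild-type mouse B cells whose treatment is labelled as none. They were kept on 40LB feeder cells, fibroblasts engineered to express CD40 ligand and BAFF, and given IL-4 (100 ng/ml) throughout the first 6 days. One group, D6, is the unsorted bulk culture at day 6. The other groups were taken off the feeders, kept 2 more days without stimulation and sorted at day 8 as IgE PC and IgG1 PC, the plasma cells, and as IgE iGC and IgG1 iGC, where iGC is the labels' name for the sorted cells of an isotype that were not plasma cells. Each of the 5 groups had 3 libraries, numbered as biological replicates. The labels used here give no strain, age or number of animals, so the p-values measure the spread between these cultures or samples.

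Apoptosis runs through a cascade of proteases, the caspases. In the extrinsic arm a death receptor such as Tnfrsf10b, the mouse receptor for the ligand TRAIL (Tnfsf10), recruits and activates Casp8, and Cflar, which encodes the Casp8 relative c-FLIP that lacks protease activity, holds Casp8 back. In the intrinsic arm cytochrome c from mitochondria and Apaf1 form the apoptosome that activates Casp9, and Xiap binds and inhibits active caspases, Casp9 among them. Casp2 is an initiator activated in a complex with Pidd1, and Casp6 is an executioner that cuts structural proteins such as lamins.

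The libraries held 17740876 to 54067953 expected read counts, the smallest being IgE iGC replicate 3. All 7 B cell markers on a fixed list averaged above 1 CPM (counts scaled to library size by the TMM method) in every group. The summed CPM of 6 plasma cell markers was 9102 to 18767 in the PC libraries and 371 to 741 in the others, and that of 5 germinal centre markers was 482 to 707 in the iGC libraries and 60.1 to 144 in the PC libraries. T cell markers summed to at most 1.33 CPM and myeloid markers to at most 27.1 CPM. Immunoglobulin genes took 33.4% to 42.5% of the TPM in PC libraries and 2.96% to 3.92% elsewhere, and the median, over genes, of the log2 fold change depended on the scaling. For IgE PC against IgE iGC this median was -0.08 with TMM, -0.55 with library totals and -0.49 on log2(TPM + 1). For IgG1 PC against IgG1 iGC it was 0.01, -0.22 and -0.42 in the same order, and for IgE PC against IgG1 PC it was -0.05, -0.30 and -0.11. CPM and log2 fold changes below are TMM-scaled, so a value near 0 means that a gene kept its place relative to most other genes.

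By length-scaled level (deposited TPM, mean of 15 libraries), Cflar was the most abundant of the 8 transcripts at 57.9 TPM, followed by Casp8 at 41.0, Casp2 at 31.2, Xiap at 29.7, Casp6 at 20.4, Apaf1 at 16.1, Casp9 at 15.8 and Tnfrsf10b at 6.24. The widest range between group means in CPM was that of Tnfrsf10b, 6.13-fold, followed by Cflar, 2.77-fold, and the narrowest was that of Casp6, 1.30-fold. The median of this range over all tested genes was 2.40-fold. All 8 genes passed the test for any difference among the 5 groups (edgeR quasi-likelihood test, Benjamini-Hochberg adjustment over all genes), as did 90.0% of all genes tested. Of the 32 pairs of neighbouring group means in the order of CPM, 14 had libraries that did not overlap, and 18 in the order of deposited TPM. The share over all genes was not computed, so these counts do not tell whether the 8 genes separate the groups more or less than others.

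**Figure D1:**
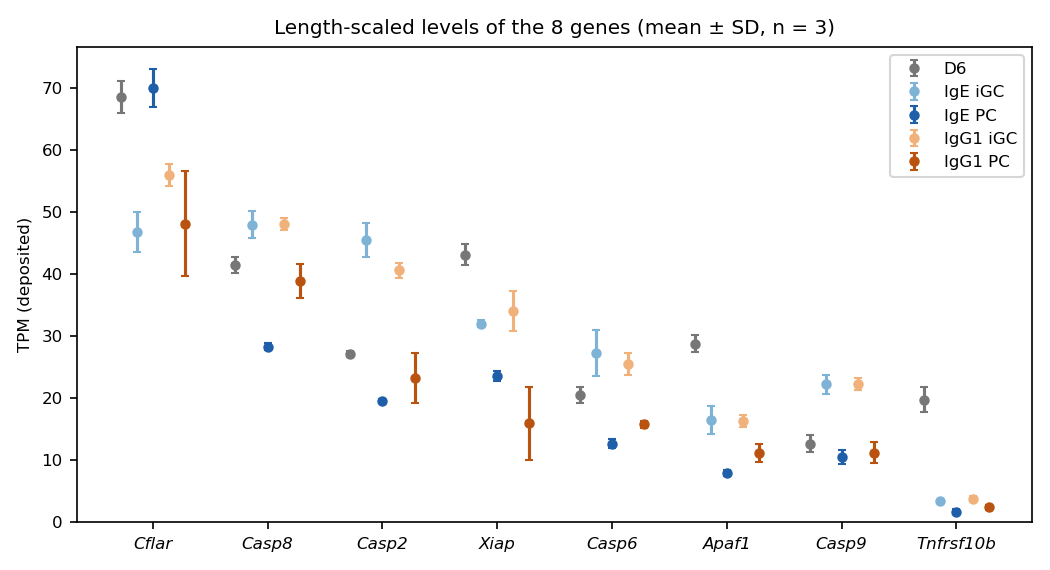
Deposited TPM (y axis) of the 8 genes (x axis, ordered by overall mean), shown as the mean of 3 libraries per group with whiskers of 1 SD. Cflar had the highest mean of the 8 in D6, in both PC groups and in IgG1 iGC, while Casp8 was highest in IgE iGC.

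**Figure D2:**
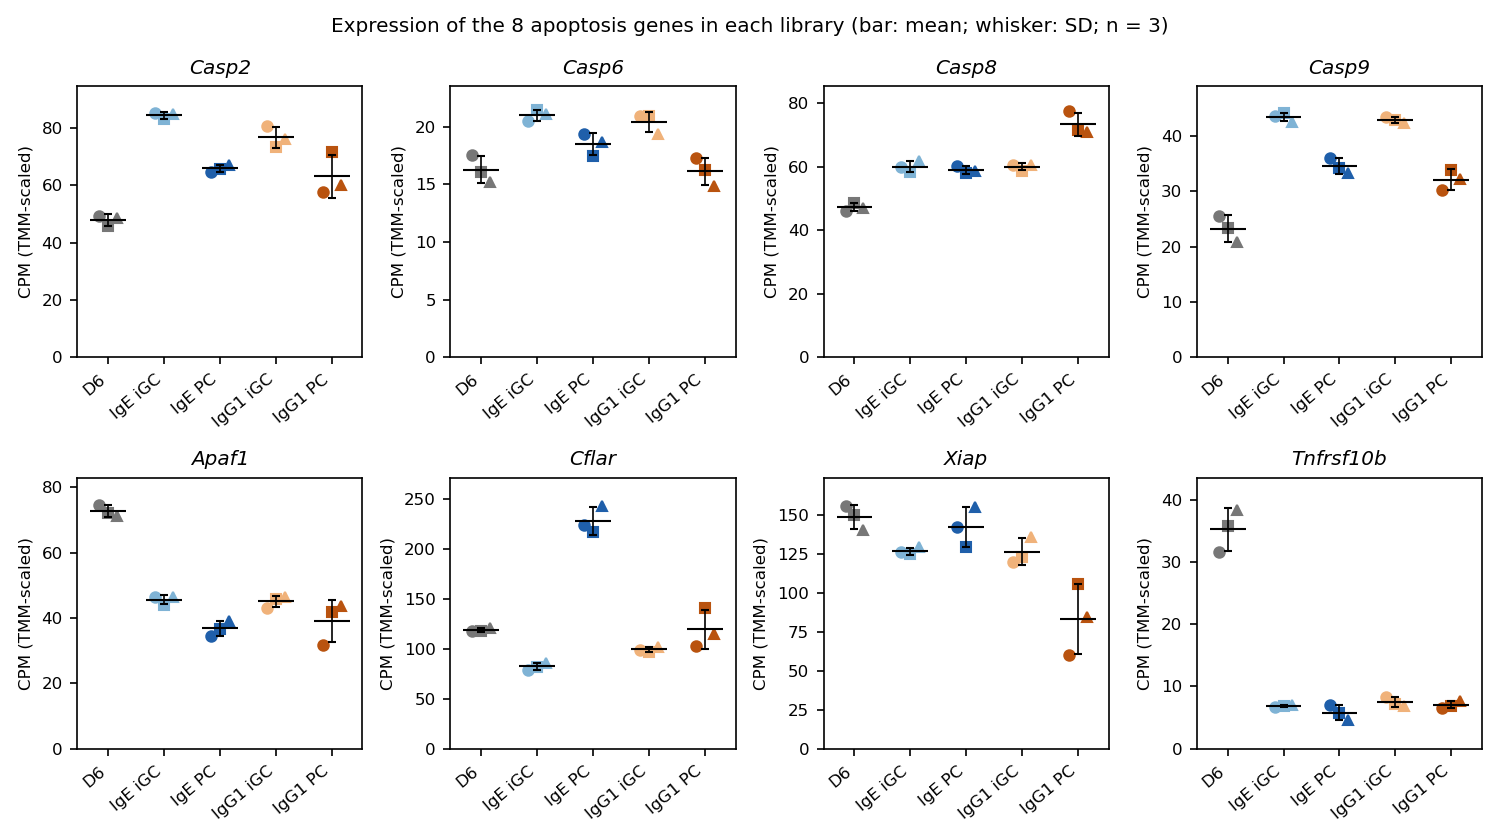
TMM-scaled CPM (y axes) of the 8 genes in each of the 15 libraries, by group along the x axes. Marker shapes are replicates 1 (circle), 2 (square) and 3 (triangle), bars are means and whiskers are SD (n = 3). Some genes lay above every library of the other groups on this scale. These were Cflar in IgE PC, Tnfrsf10b and Apaf1 in D6, Casp8 in IgG1 PC, and Casp2 in IgE iGC.

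The receptor Tnfrsf10b (GRCm38 chr14:69767472-69784411, plus strand) was read mainly in the day 6 culture. D6 replicates 1, 2 and 3 held 31.5, 35.8 and 38.3 CPM. Every sorted library lay between 4.57 and 8.36 CPM, so D6 overlapped none of them, while the 4 sorted groups overlapped one another on this scale. On deposited TPM the iGC libraries lay between 3.33 and 4.22, above the PC libraries at 1.34 to 2.79. Against D6 the log2 fold change was -2.37 in IgE iGC, -2.24 in IgG1 iGC, -2.61 in IgE PC and -2.31 in IgG1 PC, with SE of 0.12 to 0.13 and adjusted p of at most 4.54e-10 (edgeR). These 4 differences share the D6 libraries, and D6 differs from the sorted groups in day, in sorting and in contact with feeders at once. In bulk samples, fewer cells of a type and less RNA per cell cannot be told apart. Between the PC groups the value was -0.30 (SE 0.13, adjusted p = 0.0647). It ran from -0.46 without IgE PC replicate 1 (adjusted p = 0.00812) to -0.15 without IgE PC replicate 3 (adjusted p = 0.344), and passed in 2 of 6 fits with 1 library left out, the other one being without IgG1 PC replicate 1 (-0.34, adjusted p = 0.0456). With library totals it was -0.55 (adjusted p = 0.00427). Against IgE iGC the IgE PC value was -0.24 (adjusted p = 0.128), and it ran from -0.41 without IgE PC replicate 1 (adjusted p = 0.0143) to -0.092 without IgE PC replicate 3 (adjusted p = 0.558), passing in 1 of 6 such fits. It passed with library totals (-0.71) and on log2(TPM + 1) (-0.71). Between IgG1 PC and IgG1 iGC it was -0.07 (95% interval -0.32 to 0.18, adjusted p = 0.653), and -0.50 on log2(TPM + 1) (adjusted p = 0.00364).

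Fibroblast markers moved with Tnfrsf10b in D6. The sum of 12 such genes, Col1a1, Fn1 and Thbs1 among them, was 326, 516 and 532 CPM in D6 replicates 1, 2 and 3, and 24.4 to 77.3 CPM in the iGC and IgE PC libraries. IgG1 PC replicates 1, 2 and 3 held 220, 72.8 and 209 CPM of these markers. In D6, as in each of the other groups, 8 of the 12 genes averaged above 1 CPM. Postn was at 0 in all 3 libraries of each of D6, IgE iGC, IgE PC and IgG1 iGC. Tnfrsf10b in IgG1 PC replicates 1, 2 and 3 was 6.54, 6.93 and 7.73 CPM, inside the range of the sorted libraries with few fibroblast markers. The part of feeder RNA in the D6 level was not tested.

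**Figure D3:**
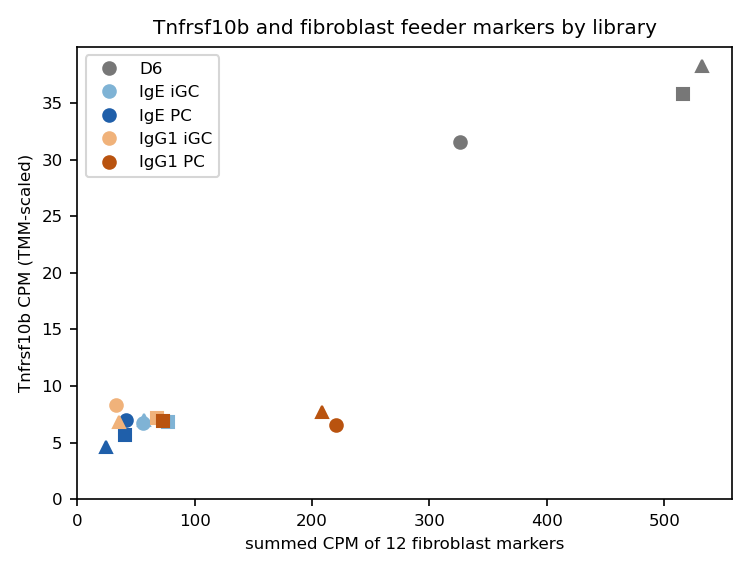
Tnfrsf10b CPM (y axis) against the summed CPM of 12 fibroblast markers (x axis), 1 point per library, coloured by group, with circles, squares and triangles for replicates 1, 2 and 3. The 3 D6 libraries lie apart at 31.5 to 38.3 CPM, and the IgG1 PC libraries with 209 and 220 CPM of fibroblast markers lie at the Tnfrsf10b level of the other sorted libraries.

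Casp8 (chr1:58795374-58847503, plus strand), the initiator that death receptors activate, was highest in IgG1 PC and lowest in D6 on the CPM scale. D6 replicates 1, 2 and 3 held 46.2, 48.7 and 47.2 CPM. IgE iGC libraries held 59.8, 58.5 and 62.0 CPM, IgE PC libraries 60.3, 58.0 and 58.7, and IgG1 iGC libraries 60.7, 58.9 and 60.8. IgG1 PC libraries held 77.6, 71.8 and 71.0 CPM and overlapped no other group, whereas the IgE PC and both iGC groups overlapped one another. Casp8 was lower in IgE PC than in IgG1 PC, at a log2 difference of -0.31 (SE 0.05, adjusted p = 4.59e-05), a direction that held with library totals (-0.56) and on log2(TPM + 1) (-0.44). IgG1 PC was higher than IgG1 iGC by 0.29 (SE 0.05, adjusted p = 0.000100) with TMM, but the difference did not pass with library totals (0.05, adjusted p = 0.319) and was -0.30 on log2(TPM + 1) (adjusted p = 0.000415). IgE PC and IgE iGC differed by -0.03 (95% interval -0.12 to 0.07, adjusted p = 0.667), and IgE PC was lower with library totals (-0.50) and on log2(TPM + 1) (-0.74). Against D6 Casp8 was higher by 0.34 in each iGC group, 0.32 in IgE PC and 0.63 in IgG1 PC with TMM (adjusted p of at most 2.03e-05). The IgE PC difference turned to -0.22 with library totals and -0.54 on log2(TPM + 1), and the IgG1 PC difference was 0.35 and -0.09 (adjusted p = 0.172 for the last).

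Cflar (chr1:58711508-58758884, plus strand), the inhibitor of Casp8, was the member with the largest change between the 2 isotypes of plasma cell with TMM. IgE PC replicates 1, 2 and 3 held 223, 217 and 243 CPM. IgG1 PC replicates held 102, 141 and 115 CPM, D6 replicates 117, 117 and 121, IgG1 iGC replicates 99.0, 96.6 and 102, and IgE iGC replicates 78.8, 81.8 and 86.2. On the CPM scale IgE PC stood above all other libraries and IgE iGC below all of them, with D6, IgG1 PC and IgG1 iGC between. On deposited TPM, IgE PC (67.3 to 73.3) overlapped D6 (65.9 to 71.0), and IgE iGC (43.5 to 50.0) overlapped IgG1 PC (39.5 to 56.4). The log2 difference of Cflar between IgE PC and IgG1 PC was 0.93 (SE 0.09, adjusted p = 3.48e-07), or 1.91-fold higher in IgE PC, and the value was 0.83 to 1.07 when any 1 library was left out. It was higher in IgE PC than in IgE iGC by 1.47 (SE 0.09, adjusted p = 6.60e-10), or 2.77-fold. On log2(TPM + 1) these differences were 0.55 and 0.57, and both passed the test. Between the PC groups Xiap had a larger value on that scale, 0.60.

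The change of Cflar from IgG1 iGC to IgG1 PC was smaller, 0.27 (SE 0.09, adjusted p = 0.0158), and it rested on single libraries and on the scaling. It was 0.12 (adjusted p = 0.110) without IgG1 PC replicate 2, 0.24 (adjusted p = 0.0572) without IgG1 iGC replicate 2, 0.28 (adjusted p = 0.0700) with only those groups fitted, 0.04 (adjusted p = 0.751) with library totals and -0.23 (adjusted p = 0.0532) on log2(TPM + 1). The change from iGC to PC was larger in IgE than in IgG1 by 1.20 on the log2 scale (SE 0.12, adjusted p = 2.73e-06 for the interaction), with 1.11 to 1.34 when any 1 library was left out, 0.96 with library totals and 0.80 on log2(TPM + 1), all past the threshold. Against D6, Cflar was higher in IgE PC by 0.94 with TMM and by 0.03 on log2(TPM + 1) (adjusted p = 0.788), lower in IgE iGC by -0.53, and lower in IgG1 iGC by -0.26 (adjusted p = 0.0165). That last call was lost without D6 replicate 3 (adjusted p = 0.0507) and without IgG1 iGC replicate 2 (adjusted p = 0.0643). IgG1 PC and D6 differed by 0.01 (95% interval -0.16 to 0.18, adjusted p = 0.918), and on log2(TPM + 1) IgG1 PC was lower by -0.52.

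Within a library, the ratio of Cflar TPM to Casp8 TPM does not depend on how libraries are scaled. It was chosen after the values were seen and is given as a description. The ratio was 2.47 ± 0.125 in IgE PC, 1.65 ± 0.0501 in D6, 1.23 ± 0.134 in IgG1 PC, 1.16 ± 0.0217 in IgG1 iGC and 0.975 ± 0.0442 in IgE iGC (SD, n = 3 each). The 3 IgE PC libraries lay between 2.40 and 2.62, above the D6 range of 1.60 to 1.70, and the IgG1 PC range of 1.10 to 1.37 held the whole IgG1 iGC range of 1.15 to 1.19. Both genes had fractional expected counts in 15 of 15 libraries, so some of their reads were shared with other sequences by the authors' estimate.

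**Figure D4:**
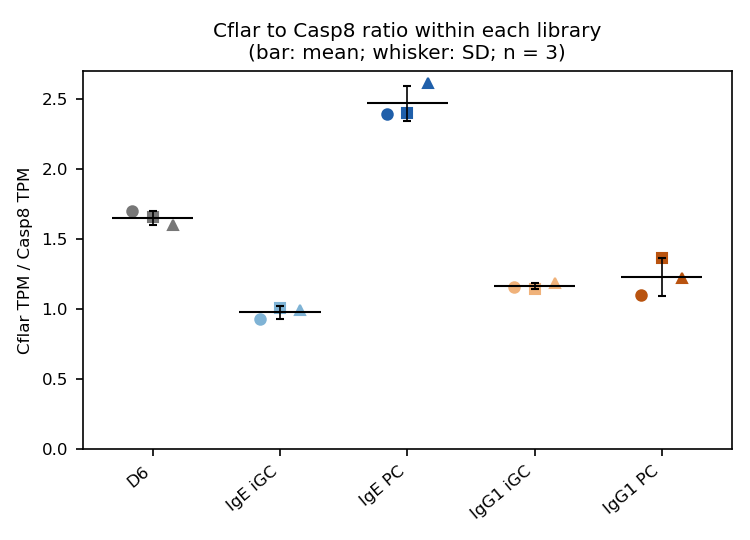
Ratio of Cflar TPM to Casp8 TPM (y axis) in each of the 15 libraries by group (x axis), with the mean as a bar and the SD as whiskers (n = 3). IgE PC libraries lie at 2.40 to 2.62 and IgE iGC libraries at 0.925 to 1.01, with the 3 other groups between.

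The sequence before the RefSeq start of Cflar (chr1:58711241-58711490 of GRCm38.p6, plus strand) is shown because Cflar changed most between the PC groups with TMM. Such windows of 250 bases were searched on both strands for 4 motifs: the GC box GGGCGG, the CCAAT box CCAAT, the cAMP-response core TGACGT and the E-box CACGTG. Of 32851 windows, 32.7% held a GC box, 33.8% a CCAAT box, 6.47% the cAMP-response core and 6.02% the E-box. The Cflar window held none of them, which says only that these letters are not in it.
Cflar: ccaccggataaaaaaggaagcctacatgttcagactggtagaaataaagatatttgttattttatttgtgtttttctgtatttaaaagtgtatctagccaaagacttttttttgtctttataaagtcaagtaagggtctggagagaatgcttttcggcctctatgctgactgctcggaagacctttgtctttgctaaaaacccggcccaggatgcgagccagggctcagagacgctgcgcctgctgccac

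Apaf1 (chr10:90989311-91082770, minus strand), the scaffold of the apoptosome, was highest in the day 6 culture. D6 replicates 1, 2 and 3 held 74.7, 72.2 and 71.3 CPM. IgE iGC replicates held 46.5, 44.0 and 46.3 CPM, IgG1 iGC replicates 43.1, 45.8 and 46.3, IgE PC replicates 34.6, 36.8 and 39.0, and IgG1 PC replicates 31.6, 41.8 and 43.8. D6 overlapped no sorted group, and IgE PC lay below both iGC groups, while IgG1 PC overlapped the IgE PC range and, at its top, that of IgG1 iGC. Against D6 Apaf1 was lower in all 4 sorted groups, by -0.67 in IgE iGC, -0.69 in IgG1 iGC, -0.98 in IgE PC and -0.89 in IgG1 PC (SE 0.09 each), with adjusted p of at most 7.64e-06. It was lower in IgE PC than in IgE iGC by -0.31 (SE 0.09, adjusted p = 0.00802), with -0.78 by library totals and -0.96 on log2(TPM + 1). The value for IgG1 PC against IgG1 iGC was -0.20 (adjusted p = 0.0681). It passed in 2 of 6 fits with 1 library left out, at -0.27 when IgG1 PC replicate 2 was dropped (adjusted p = 0.0283) and -0.29 when replicate 3 was (adjusted p = 0.0164), but was -0.076 without IgG1 PC replicate 1 (adjusted p = 0.261). It passed with library totals (-0.43) and on log2(TPM + 1) (-0.51). Between the PC groups it was -0.09 (adjusted p = 0.414), and it ran from -0.22 without IgG1 PC replicate 1 (adjusted p = 0.00346) to -0.0018 without IgG1 PC replicate 3 (adjusted p = 0.992), passing in 1 of 6 fits. It passed with library totals (-0.35) and on log2(TPM + 1) (-0.44). The fibroblast marker sums given above for D6 apply to Apaf1 as well, and their part was not tested.

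Casp9 (chr4:141793612-141815976, plus strand), which the apoptosome activates, was highest in the iGC groups and lowest in D6 on the CPM scale. IgE iGC replicates 1, 2 and 3 held 43.7, 44.1 and 42.6 CPM and IgG1 iGC replicates 43.5, 42.9 and 42.4. IgE PC replicates held 36.1, 34.3 and 33.3 CPM, IgG1 PC replicates 30.2, 33.9 and 32.3, and D6 replicates 25.6, 23.4 and 20.8. Both iGC groups lay above both PC groups, and these lay above D6, while groups of the same stage overlapped. Casp9 fell from iGC to PC by 0.33 on the log2 scale in IgE (SE 0.07, adjusted p = 0.000583) and by 0.42 in IgG1 (SE 0.07, adjusted p = 0.000102), and both falls were larger with library totals (-0.80 and -0.65) and on log2(TPM + 1) (-1.02 and -0.94). Against D6 it was higher by 0.90 in IgE iGC and 0.88 in IgG1 iGC, with adjusted p of at most 2.32e-08. It was also higher in IgE PC by 0.57 and in IgG1 PC by 0.47 with TMM, but these were 0.04 and 0.19 with library totals and -0.25 and -0.17 on log2(TPM + 1), none past the threshold. Casp9 shares 94 exon bases with the oppositely transcribed Cela2a and Ctrc, which were at or below 0.0227 CPM.

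Casp2 (chr6:42264985-42282508, plus strand), the initiator that Pidd1 activates, followed the same order. IgE iGC replicates 1, 2 and 3 held 85.3, 83.1 and 84.8 CPM and IgG1 iGC replicates 80.6, 73.2 and 76.1. IgE PC replicates held 64.6, 65.7 and 67.2 CPM, IgG1 PC replicates 57.5, 71.6 and 60.0, and D6 replicates 49.4, 45.6 and 48.6. The iGC libraries were all above the PC libraries, which were all above D6, and the IgG1 PC range enclosed that of IgE PC. Unlike for Casp9, the IgE iGC libraries all lay above those of IgG1 iGC. Casp2 fell from iGC to PC by 0.36 on the log2 scale in IgE (SE 0.07, adjusted p = 0.000321) and by 0.28 in IgG1 (SE 0.07, adjusted p = 0.00288). Library totals gave -0.83 and -0.51, and log2(TPM + 1) gave -1.18 and -0.79. Against D6 it was higher by 0.82 in IgE iGC and 0.68 in IgG1 iGC (adjusted p of at most 4.71e-07). With TMM it was also higher in IgE PC by 0.46 and in IgG1 PC by 0.40, against -0.07 and 0.12 with library totals and -0.45 and -0.23 on log2(TPM + 1). Between the PC groups it was 0.06 (adjusted p = 0.475), and 0.17 (adjusted p = 0.0131) without IgG1 PC replicate 2.

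Over the 15 libraries the log2 CPM of Casp2 and Casp9 had a Pearson correlation of 0.957, the closest pair among the 8 genes, and Apaf1 and Tnfrsf10b had 0.908. These are descriptions over libraries that share 5 groups. The windows before the RefSeq starts of Casp2 (chr6:42264735-42264984, plus strand) and Casp9 (chr4:141793362-141793611, plus strand) are shown for this reason, with capitals marking matches to the motifs listed above. The Casp2 window held 1 GC box and 2 CCAAT boxes, and the Casp9 window held 4 GC boxes and no CCAAT box.
Casp2: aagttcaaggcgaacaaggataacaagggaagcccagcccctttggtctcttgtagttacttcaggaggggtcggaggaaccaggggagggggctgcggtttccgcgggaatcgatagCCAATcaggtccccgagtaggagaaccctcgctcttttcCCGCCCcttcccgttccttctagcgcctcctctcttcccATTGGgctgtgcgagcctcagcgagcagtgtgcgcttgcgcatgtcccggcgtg
Casp9: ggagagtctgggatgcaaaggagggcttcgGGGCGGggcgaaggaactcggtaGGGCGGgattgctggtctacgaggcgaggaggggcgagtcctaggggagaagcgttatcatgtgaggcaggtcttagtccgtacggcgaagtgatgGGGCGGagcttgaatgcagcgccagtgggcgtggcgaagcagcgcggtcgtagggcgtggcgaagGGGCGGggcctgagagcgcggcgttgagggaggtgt

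Xiap (chrX:42059679-42109656, plus strand), the inhibitor of Casp9 and of executioner caspases, was lowest in IgG1 PC. IgG1 PC replicates 1, 2 and 3 held 60.1, 106 and 84.6 CPM, the widest spread of any group for this gene. IgE PC replicates held 143, 129 and 155 CPM, IgE iGC replicates 127, 125 and 130, IgG1 iGC replicates 120, 123 and 136, and D6 replicates 156, 150 and 141. Every IgG1 PC library lay below every library of the other groups, and IgE PC overlapped all 3 of those. Xiap was higher in IgE PC than in IgG1 PC by 0.77 on the log2 scale (SE 0.14, adjusted p = 0.000291), 0.58 without IgG1 PC replicate 1 and 0.98 without IgG1 PC replicate 2. The difference was 0.50 with library totals (adjusted p = 0.0121) and 0.60 on log2(TPM + 1) (limma adjusted p = 0.0199). It fell from IgG1 iGC to IgG1 PC by 0.60 on the log2 scale (SE 0.14, adjusted p = 0.00205), or by 0.41 without IgG1 PC replicate 1, and further on log2(TPM + 1) (-1.11). From IgE iGC to IgE PC the value was 0.17 (95% interval -0.11 to 0.44, adjusted p = 0.320), and its sign turned with library totals (-0.31, adjusted p = 0.0909) and on log2(TPM + 1) (-0.43, adjusted p = 0.0556). It passed as a rise when only these groups were fitted (0.19, adjusted p = 0.0104).

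The change of Xiap from iGC to PC differed between isotypes by 0.76 (SE 0.20, adjusted p = 0.00631), but this did not pass with library totals (0.51, adjusted p = 0.0711) or on log2(TPM + 1) (0.68, adjusted p = 0.0751). In IgG1 PC replicate 1, where Xiap was lowest, immunoglobulin genes took 41.1% of TPM against 33.4% and 34.0% in replicates 2 and 3, and the plasma cell marker sum was 13380 CPM against 9850 and 9102. The part of these differences, or of the fibroblast markers, in the level of Xiap was not tested. Against D6, Xiap was lower in IgG1 PC by -0.83 (SE 0.14, adjusted p = 8.78e-05). The values against D6 in IgE iGC and IgG1 iGC were both -0.23 (adjusted p = 0.157 and 0.151), and in IgE PC -0.06 (adjusted p = 0.689). With only the groups compared in the fit, the iGC values passed, at -0.18 (adjusted p = 0.00334) in IgE and -0.17 (adjusted p = 0.00941) in IgG1. With library totals and on log2(TPM + 1) the IgE PC difference from D6 was -0.60 and -0.85, past the threshold.

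Casp6 (chr3:129901425-129914103, plus strand), the executioner in the set, varied least. IgE iGC replicates 1, 2 and 3 held 20.5, 21.4 and 21.1 CPM and IgG1 iGC replicates 21.0, 20.9 and 19.4. IgE PC replicates held 19.4, 17.5 and 18.7 CPM, IgG1 PC replicates 17.2, 16.3 and 14.9, and D6 replicates 17.5, 16.1 and 15.2. D6 and IgG1 PC shared nearly the same low range, and the 2 iGC groups the same high one. Casp6 fell from IgG1 iGC to IgG1 PC by 0.34 on the log2 scale (SE 0.07, adjusted p = 0.000849) and was higher than D6 by 0.37 in IgE iGC and 0.33 in IgG1 iGC, with adjusted p of at most 0.000866. IgG1 PC and D6 differed by -0.02 (95% interval -0.16 to 0.13, adjusted p = 0.860), and IgG1 PC was lower with library totals (-0.30) and on log2(TPM + 1) (-0.36).

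The other calls for Casp6 were fragile. IgE PC against IgG1 PC gave 0.20 (SE 0.07, adjusted p = 0.0282), lost without IgE PC replicate 1 (adjusted p = 0.106), without IgE PC replicate 3 (0.0506) or without IgG1 PC replicate 3 (0.128). It was also lost with no filter (adjusted p = 0.0868) and with only these groups fitted (adjusted p = 0.0959), and turned to -0.05 with library totals and -0.29 (adjusted p = 0.0180) on log2(TPM + 1). IgE PC against IgE iGC gave -0.18 (SE 0.07, adjusted p = 0.0421), a call that remained in 1 of 6 fits with 1 library left out and was lost with RLE scaling (-0.16, adjusted p = 0.0759), with DESeq2 (-0.16, adjusted p = 0.105) and with no filter (-0.20, adjusted p = 0.0757). With library totals that fall was larger, at -0.65, and on log2(TPM + 1) it was -1.04. IgE PC against D6 gave 0.19 (SE 0.07, adjusted p = 0.0307), which remained in 3 of 6 such fits, being lost without IgE PC replicate 1, D6 replicate 2 or D6 replicate 3. It was lost with no filter (adjusted p = 0.103), and was -0.35 with library totals and -0.65 on log2(TPM + 1).

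**Figure D5:**
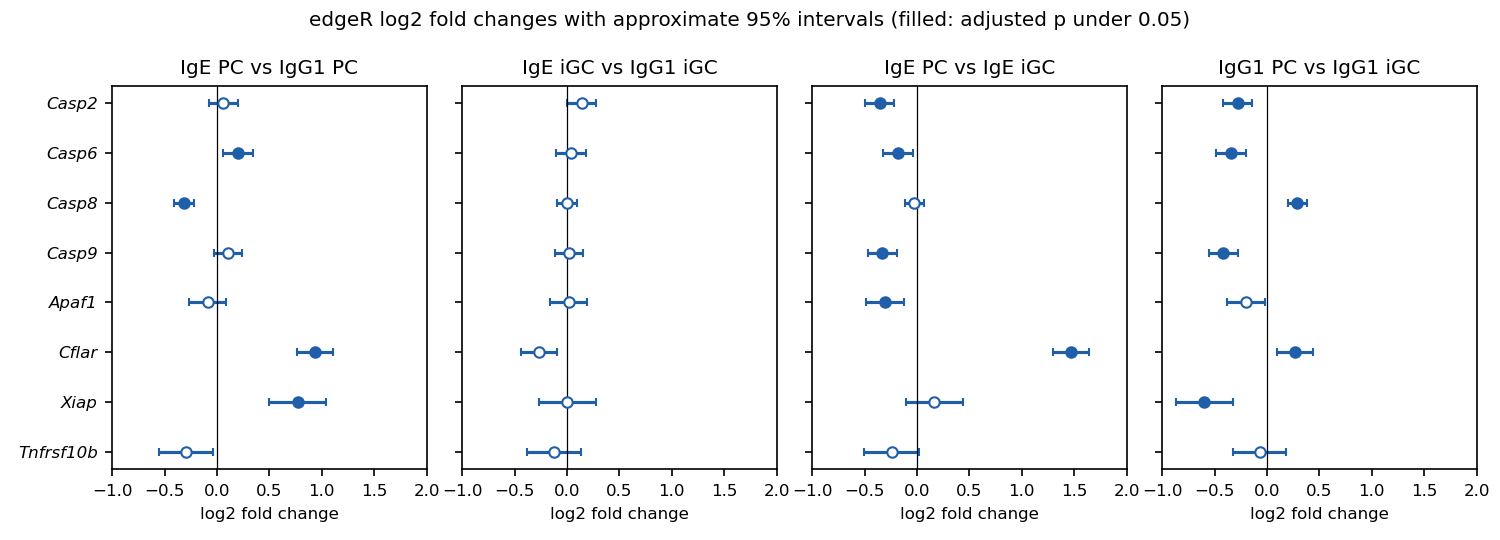
Log2 fold changes (x axes) of the 8 genes (y axis) in the 4 comparisons between sorted groups, from edgeR with TMM scaling; lines are approximate 95% intervals and filled points have an adjusted p under the threshold of 0.05. Cflar at 0.93 and Xiap at 0.77 lie farthest right in IgE PC against IgG1 PC, and Cflar at 1.47 in IgE PC against IgE iGC.

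Comparing plasma cells of the 2 isotypes with TMM, IgE PC had more Cflar, Xiap and Casp6 and less Casp8 than IgG1 PC. The direction of Casp6 depended on the scaling, at -0.05 with library totals and -0.29 (limma adjusted p = 0.0180) on log2(TPM + 1). The 4 of 8 genes called, 3 higher and 1 lower, stand against 58.1% of all genes tested, 27.4% higher and 30.7% lower. The marker sums moved with the isotype of the PC libraries too: plasma cell markers summed to 16299 to 18767 CPM in IgE PC and 9102 to 13380 in IgG1 PC, germinal centre markers to 60.1 to 61.5 and 97.7 to 144, and fibroblast markers to 24.4 to 41.2 and 72.8 to 220. Their part in the differences of the 8 genes was not tested. With library totals or on log2(TPM + 1) the members called were 2 higher (Cflar and Xiap) and 3 lower. The lower ones were Casp8, Apaf1 and Tnfrsf10b with library totals, and Casp6, Casp8 and Apaf1 on log2(TPM + 1). Over all genes the share of calls that were higher went from 47.2% with TMM to 23.8% and 31.7%. Casp9 was not called, at 0.10 (95% interval -0.03 to 0.24, adjusted p = 0.214). The interaction, which asks whether the step from iGC to PC differs between isotypes, called 3 of 8 members, Cflar, Xiap and Casp8, against 42.9% of all genes, 19.8% higher and 23.1% lower. The other members gave 0.16 for Casp6, 0.08 for Casp9, -0.08 for Casp2, -0.11 for Apaf1 and -0.17 for Tnfrsf10b. Of its calls the split was 2 higher and 1 lower with TMM, 1 higher and 2 lower with library totals, and 1 higher and 4 lower on log2(TPM + 1), and over all genes 46.1%, 21.6% and 29.6% of calls were higher.

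The same question was asked of the sorted cells that were not plasma cells. Between IgE iGC and IgG1 iGC 0 of 8 genes were called by edgeR, against 3.87% of all genes (1.99% higher and 1.88% lower), with 1 gene at an unadjusted p under 0.05. That gene was Cflar, at -0.27 (95% interval -0.44 to -0.10, edgeR adjusted p = 0.118), and all IgE iGC libraries lay below those of IgG1 iGC. It passed when only these groups were fitted (-0.28, adjusted p = 0.00148), whereas DESeq2 and limma on log2(TPM + 1) each called 0 of the 8. The other 7 values lay between -0.13 for Tnfrsf10b (95% interval -0.38 to 0.13) and 0.14 for Casp2 (95% interval 0.0026 to 0.28), with 0.04 for Casp6, 0.02 for Casp9, 0.02 for Apaf1, 0.0041 for Xiap and -0.00075 for Casp8. The approximate interval of Casp2 excluded 0, but its unadjusted edgeR p was 0.0644. All IgE iGC libraries lay above those of IgG1 iGC for Casp2.

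From iGC to PC, Casp2, Casp6 and Casp9 fell in both isotypes with TMM, and by more with library totals and on log2(TPM + 1). With RLE scaling the falls in IgE were slightly smaller (-0.34 for Casp2 and -0.31 for Casp9), and that of Casp6 did not pass. In IgE 5 of 8 genes were called, 1 higher and 4 lower, against 64.1% of all genes (30.5% higher and 33.6% lower), the fourth lower one being Apaf1. In IgG1 6 of 8 were called, 2 higher (Casp8 and Cflar) and 4 lower (the 3 caspases and Xiap), against 59.1% (30.1% higher and 29.0% lower). On log2(TPM + 1) the split was 1 higher and 6 lower in IgE and 0 higher and 7 lower in IgG1, where the share of all called genes that were higher fell from 47.6% to 16.1% and from 50.9% to 15.1%.

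Against the day 6 culture, the 4 caspases were higher and Apaf1, Cflar and Tnfrsf10b lower in both iGC groups. This made 7 of 8 called in IgE iGC, against 69.1% of all genes (32.8% higher and 36.3% lower), and 7 of 8 in IgG1 iGC, against 68.4% (32.4% higher and 36.0% lower). The same split of 4 higher and 3 lower came with library totals and on log2(TPM + 1). In IgE PC 7 of 8 were called, 5 higher and 2 lower, against 76.4% (36.9% higher and 39.5% lower). In IgG1 PC 6 of 8 were called, 3 higher and 3 lower, against 71.9% (35.9% higher and 36.0% lower). For both PC groups the split was 1 higher and 5 lower with library totals and 0 higher and 6 lower on log2(TPM + 1), so only the lower level of Apaf1 and Tnfrsf10b in both, and of Xiap in IgG1 PC, kept its direction and its call on every scale.

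A wider list of 41 genes of apoptosis and necroptosis set these 8 in their pathway, of which 38 were tested. Fasl was at most 0.174 CPM, Casp14 was at 0 and Septin4 was not matched. Between the PC groups 12 were higher in IgE PC, 14 lower and 12 not called, with a median log2 fold change of 0.00 against -0.05 over all genes. Of all genes tested 58.1% were called there, 27.4% higher and 30.7% lower. The list split 7 higher and 20 lower with library totals and 7 higher and 15 lower on log2(TPM + 1). Between the iGC groups 1 was called, Parp1, a DNA repair enzyme that caspases cut, named for being the single call, at 0.25 (adjusted p = 0.0137). That call was lost with library totals and on log2(TPM + 1), where 0 genes of the list were called. From iGC to PC 15 were higher and 14 lower in IgE and 15 higher and 16 lower in IgG1, and on log2(TPM + 1) 2 higher and 23 lower, and 4 higher and 25 lower. With TMM, 30.5% of all genes were higher and 33.6% lower in IgE, and 30.1% and 29.0% in IgG1. By role, the steps from iGC to PC differed. The 5 nuclease and substrate genes, named after their values were seen (Dffa, Dffb, Parp1, Acin1 and Lmnb1), were all called lower in both isotypes, with a median of -0.44 in IgE and -0.41 in IgG1. The call of Acin1 in IgG1 was lost when only those groups were fitted (-0.17, adjusted p = 0.0738). Of 5 tested caspases outside the set of 8, 3 were higher and 1 lower in IgE (median 0.63) and 4 were higher and 0 lower in IgG1 (median 0.57). Of 3 genes of mitochondrial release 2 were higher and 0 lower in each isotype. Of 9 inhibitors and their antagonists 4 were higher and 2 lower in IgE, and 3 higher and 5 lower in IgG1. Of 11 receptors, ligands and adaptors 3 were higher and 4 lower in IgE, and 4 of each in IgG1.

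Between the PC groups 5 genes of the wider list were called with at least a 2-fold change and no overlap. Ddit3, a stress-induced transcription factor known to act on Tnfrsf10b, was at 95.7 ± 4.59 CPM in IgE PC, 34.8 ± 8.04 in IgG1 PC, 18.4 ± 0.824 in IgE iGC, 14.8 ± 1.06 in IgG1 iGC and 20.3 ± 2.03 in D6 (SD, n = 3). It was higher in IgE PC than in IgG1 PC by 1.47 (SE 0.12, adjusted p = 1.24e-07). Trp53, listed beside Ddit3 as a regulator of Tnfrsf10b and outside this rule, was at 79.8 ± 2.49 CPM in IgE PC and 114 ± 4.37 in IgG1 PC. Tnfrsf10b was at 4.57 to 6.97 CPM in the IgE PC libraries, and a link with either gene was not tested. Tnfsf10, the ligand of Tnfrsf10b, was at 4.97 ± 1.17 CPM in IgE PC and 1.90 ± 0.431 in IgG1 PC, a difference of 1.37 (SE 0.24, adjusted p = 0.000183). Pidd1, which activates Casp2, was at 9.31 ± 0.517 CPM in IgE PC and 21.8 ± 0.675 in IgG1 PC, lower by -1.23 (SE 0.10, adjusted p = 4.87e-08). Tnf, a death-receptor ligand, was lower in IgE PC by -2.51 (2.71 ± 0.683 against 15.5 ± 3.68 CPM), and Ripk3, a kinase of necroptosis, by -1.17 (17.1 ± 0.851 against 38.6 ± 3.22 CPM). The calls of these 5 genes held under all alternatives run.

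The same rule, with at most 4 genes in each direction, named the following in the other comparisons. For the interaction, the difference between the steps, overlap was not checked. From iGC to PC, Tnfsf10 and Ddit3 were higher in both isotypes, by 2.85 and 2.37 in IgE and by 1.56 and 1.22 in IgG1. Tnf was lower in both, by -3.64 in IgE (34.1 to 2.71 CPM) and -1.53 in IgG1 (45.1 to 15.5 CPM). In IgE, Pidd1 (-1.53), Ripk3 (-1.31) and Parp1 (-1.08) were also lower. In IgG1, Mlkl, the effector of necroptosis, was higher by 1.20 (3.52 to 8.14 CPM), and Casp12, at 0.116 and 0.432 CPM, by 1.82, which did not pass on log2(TPM + 1) (adjusted p = 0.324). The steps differed between isotypes by more than 2-fold for Tnfsf10 (1.29), Ddit3 (1.15), Tnf (-2.11), Tnfrsf1a (-2.08), Pidd1 (-1.38) and Ripk3 (-1.09). Of these, Tnfsf10 was lost on log2(TPM + 1) (adjusted p = 0.0525) and without IgG1 iGC replicate 1 (0.96, adjusted p = 0.0637). Tnfrsf1a, a receptor of Tnf with means of 0.557 to 2.20 CPM in the sorted groups, was lost on log2(TPM + 1) (adjusted p = 0.215), with no filter (adjusted p = 0.110) and in 8 of 12 fits with 1 library left out, down to -1.52 without IgE iGC replicate 2 (adjusted p = 0.146).

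Against D6, both iGC groups had more Parp1 (1.27 in IgE and 1.02 in IgG1), Birc5 (1.26 and 1.11) and Birc2 (1.06 and 1.40), the last of them encoding the ubiquitin ligase cIAP1. IgE iGC had more Xaf1 (1.01) and IgG1 iGC more Tnf (1.05). Both had less Tnfrsf1a (-2.27 and -2.41), Casp12 (-1.82 and -2.08), Casp4 (-1.35 and -1.37) and Tnfsf10 (-1.28 and -1.36). The IgE value of Casp12 was lost without D6 replicate 3 (-1.20, adjusted p = 0.0523). IgE PC had more Ddit3 (2.24), Tnfsf10 (1.57), Birc2 (1.13) and Cyld (1.07) than D6, the last 2 lost on log2(TPM + 1) (adjusted p = 0.314 and 0.0885). It had less Tnf (-3.00), Tnfrsf1a (-2.77), Ripk3 (-2.17) and Pidd1 (-1.62). IgG1 PC had more Birc5 (1.46) and less Ripk3 (-1.01). The fibroblast marker sums of D6 apply to these differences too, and their part was not tested.

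For each member the 2 genes with the most similar log2 CPM over the 15 libraries were taken from 8245 genes averaging at least 10 CPM. Cflar was closest to Acadsb (r = 0.982) and Dnajc1 (0.977), Xiap to Efr3a (0.985) and Slmap (0.978), and Casp8 to Rtn4ip1 (0.965) and Gm2a (0.959). Casp9 was closest to Agap2 and Cdk19 (0.987 each), Casp2 to Senp1 (0.978) and Sh3kbp1 (0.977), Apaf1 to Map3k20 (0.984) and Prep (0.978), and Tnfrsf10b to Fasn and Arhgap35 (0.992 each). Casp6 had the weakest closest pair, Pitpna (0.937) and Lmbrd1 (0.929). These correlations describe libraries that share 5 groups.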

How the data were processed

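Poly(A) RNA of 15 libraries was sequenced as stranded single-end reads of 76 bp with the KAPA mRNA HyperPrep kit, per the labels' protocols. The deposited table holds expected counts and TPM per gene, in the form RSEM writes, per the file headers. The submitters' processing notes list cutadapt 1.9.1, STAR 2.5.2a, RSEM 1.3.0, DESeq2 1.12.3 and GRCm38; the annotation and strand setting are not given in the sources used here. Of 51912 identifiers 51633 matched a symbol, and 0 per-sample columns were left unmapped.

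Expected counts were rounded, filtered with filterByExpr (minimum count 10, minimum total 15; 15692 genes), scaled by TMM and fitted over all 5 groups with robust glmQLFit and glmQLFTest (edgeR 4.0.16, R 4.3.3) with Benjamini-Hochberg adjustment, a call being an adjusted p under 0.05. SE is the absolute log2 fold change over the root of F, and 95% intervals from it are approximate. They use a normal quantile, so they are narrower than the test implies. CPM was computed from the rounded counts and TMM-scaled library sizes. The code was tested on simulated data. Alternatives were RLE scaling, library totals, no filter, a replicate block, only the groups compared, DESeq2 1.42.0, limma 3.58.1 on log2(TPM + 1), and leaving out each library. Coordinates are GENCODE gene spans on GRCm38, and promoter windows are the 250 bases before RefSeq starts on GRCm38.p6. Reads carry no molecular identifiers, so precision rests on the 3 libraries per group. Figures were drawn with matplotlib 3.10.9.

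All 8 genes are reported in every comparison. Of the wider list, genes called with at least 2-fold change and groups that do not overlap are named, at most 4 per direction (genes outside this rule are marked). Overlap was not checked for the interaction. For each member the 2 most correlated genes are named. Some genes are not reported here. The members and lists were chosen with earlier results of these data known.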

Additional observations from a re-analysis of the deposited data

Results flagged for a closer look

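The step from iGC to PC differed between the isotypes for 3 of the 8 genes by a test of the difference itself (the interaction in edgeR, with 3 libraries in each of 4 groups). For Cflar the change in IgE minus that in IgG1 was 1.20 on the log2 scale, for Xiap it was 0.76 and for Casp8 it was -0.31, with adjusted p of 2.73e-06, 0.00631 and 0.00170. All 3 passed whichever library was left out; Xiap did not pass with library totals or on log2(TPM + 1). No cause was tested.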

How the results depend on the processing

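The number of members called stayed within 1.5 times the reported number under all alternatives run, except that IgE iGC against IgG1 iGC went from 0 to 1 when only the groups compared were fitted and the interaction went from 3 to 5 with limma on log2(TPM + 1). Over all genes the count for IgE iGC against IgG1 iGC was 607, but 1503 with only those groups, 922 with DESeq2 and 323 to 403 with any 1 of their libraries left out, and the interaction count was 6733 but 4354 with limma on TPM. The replicate numbers did not pair the libraries: deviations from group means correlated by -0.0146 on average over 30 same-numbered pairs, 0 of them above 0.1, and 3 of 15 libraries correlated best with their own number. With a replicate block the members called were 4, 0, 5, 6, 3, 7, 7, 7 and 6 in the 9 comparisons, as without it, and the 72 member values kept direction and call.

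Directions turned most often with scaling; the cause was not tested for any single gene. With library totals the log2 fold change between the PC groups turned to -0.19 for Casp2, -0.050 for Casp6 and -0.15 for Casp9, IgE PC against D6 to -0.073 for Casp2, -0.35 for Casp6 and -0.22 for Casp8, the interaction to -0.074 for Casp6 and -0.15 for Casp9, Xiap to -0.31 in IgE PC against IgE iGC and -0.010 between the iGC groups, and Cflar to -0.27 in IgG1 PC against D6. With limma on log2(TPM + 1) the PC groups gave -0.22 for Casp2, -0.29 for Casp6 and -0.086 for Casp9, and the iGC groups -0.0038 for Casp9 and -0.084 for Xiap. IgE PC against D6 gave -0.45 for Casp2, -0.65 for Casp6, -0.54 for Casp8 and -0.25 for Casp9, IgG1 PC against D6 -0.23 for Casp2, -0.091 for Casp8, -0.17 for Casp9 and -0.52 for Cflar, and the interaction -0.38 for Casp6 and -0.083 for Casp9. Xiap was -0.43 in IgE PC against IgE iGC, and Casp8 and Cflar were -0.30 and -0.23 in IgG1 PC against IgG1 iGC.

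Values near 0 also turned under other settings. Between the iGC groups Casp8 was 0.0064 with RLE and 0.0036 with DESeq2, and Xiap -0.0033 with only those groups. In IgG1 PC against D6, Cflar was -0.025 with RLE and -0.029 with DESeq2, and Casp6 0.0014 with only those groups. With 1 library left out, the ranges that crossed 0 were -0.022 to 0.018 for Casp8, -0.032 to 0.060 for Xiap and -0.015 to 0.043 for Apaf1 between the iGC groups, -0.14 to 0.019 for Tnfrsf10b in IgG1 PC against IgG1 iGC, -0.14 to 0.025 for Casp2 in the interaction, -0.10 to 0.0091 for Xiap in IgE PC against D6, and -0.061 to 0.046 for Casp6 and -0.11 to 0.12 for Cflar in IgG1 PC against D6. Tnfrsf10b had the fewest counts of the 8, 131 to 1510 per library, while Xiap had the largest SE in each comparison, 0.14 on the log2 scale between groups and 0.20 in the interaction.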
